A study of Mus musculus with 9 samples.

Results

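The Ly6 family genes described here are 8 mouse genes for small surface proteins held in the membrane by a glycosylphosphatidylinositol (GPI) anchor: Ly6a, Ly6c1, Ly6c2, Ly6d, Ly6e, Ly6k, Lypd3 and Lypd6b. They were taken by symbol from a table of 54838 genes. The family was chosen by the expression values of Ly6c1, which was among the genes that set the control clone apart. All libraries came from PDA530 Met, a mouse pancreatic ductal adenocarcinoma line that originated in the metastatic liver tumour of a male KPC mouse, a genetic model of pancreatic cancer, on a mixed 129/SvJae/C57Bl/6 background. The 3 groups had 3 untreated biological replicates each, for 9 mRNA libraries in all. The parental cells were the unedited line. The knockout clone, E4, is a single-cell clone edited with CRISPR/Cas9 in Zdhhc20, which encodes a palmitoyltransferase of the plasma membrane. The control clone, C5, is a single-cell clone that was nucleofected with the same guide RNAs, escaped editing and still expresses Zdhhc20. The edited cells are thus 1 clone, and the unedited cells are the parental line and 1 clone. A difference between clones cannot be told apart from a difference caused by the edit.

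Ly6 proteins share a compact fold of disulphide-bonded loops and sit on the outer face of the membrane, where they act in cell adhesion, in signalling and as modulators or partners of other receptors. Several of them are used as markers: Ly6a is Sca-1, a stem and progenitor cell antigen, and Ly6c1 and Ly6c2 together give the Ly6C antigen of monocytes, lymphocytes and endothelium. Ly6a, Ly6c1 and Ly6e are known to respond to interferon. Most of the family lies in 1 block of tandem copies on chromosome 15, and the copies are similar enough for short reads to fit more than 1 gene.

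The closest copies among the members are Ly6c1 (chr15:75044018-75048830, minus strand) and Ly6c2 (chr15:75108158-75111970, minus strand). Their coding sequences have 393 bases each and differ at 9 of them, which makes them 97.7% identical, with a longest identical run of 188 bases. Bases 1 to 300 are printed here, from GENCODE M21 on GRCm38, because they show how little separates a read of one gene from a read of the other. Capitals mark the 7 differing bases in this stretch, and the identical run lies between the last 2 of them.
Ly6c1 coding: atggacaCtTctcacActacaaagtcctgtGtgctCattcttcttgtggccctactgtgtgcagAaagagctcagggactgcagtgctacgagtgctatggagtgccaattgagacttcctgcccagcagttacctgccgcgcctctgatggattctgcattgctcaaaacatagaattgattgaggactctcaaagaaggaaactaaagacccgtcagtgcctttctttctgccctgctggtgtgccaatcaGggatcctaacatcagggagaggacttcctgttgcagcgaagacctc
Ly6c2 coding: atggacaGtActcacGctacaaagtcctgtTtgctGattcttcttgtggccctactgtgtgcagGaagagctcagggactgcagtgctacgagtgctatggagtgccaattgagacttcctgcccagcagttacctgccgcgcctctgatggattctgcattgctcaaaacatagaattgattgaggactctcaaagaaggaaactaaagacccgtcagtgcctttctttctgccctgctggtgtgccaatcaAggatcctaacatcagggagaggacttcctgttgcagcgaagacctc
Of all 50-base stretches in Ly6c1 protein-coding transcripts, 32.8% also occur in another gene, 21.5% in Ly6c2 and 11.1% in Ly6a. The share falls to 10.1% for stretches of 100 bases. Ly6a shares 19% of its 50-base stretches with other genes, 15% with Ly6c1, and 1.45% of its 100-base stretches. For Ly6c2 the shares were 31.2% and 14.9%. Ly6d, Ly6e and Lypd6b share no stretch of either length. Ly6k shares 32.7% of its 50-base stretches with the annotated gene Gm17189 and Lypd3 8.12% with Gm26550. The read length is not given in the sources used here, so counts of Ly6a, Ly6c1 and Ly6c2 are treated as uncertain in how they divide shared reads.

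**Figure D1:**
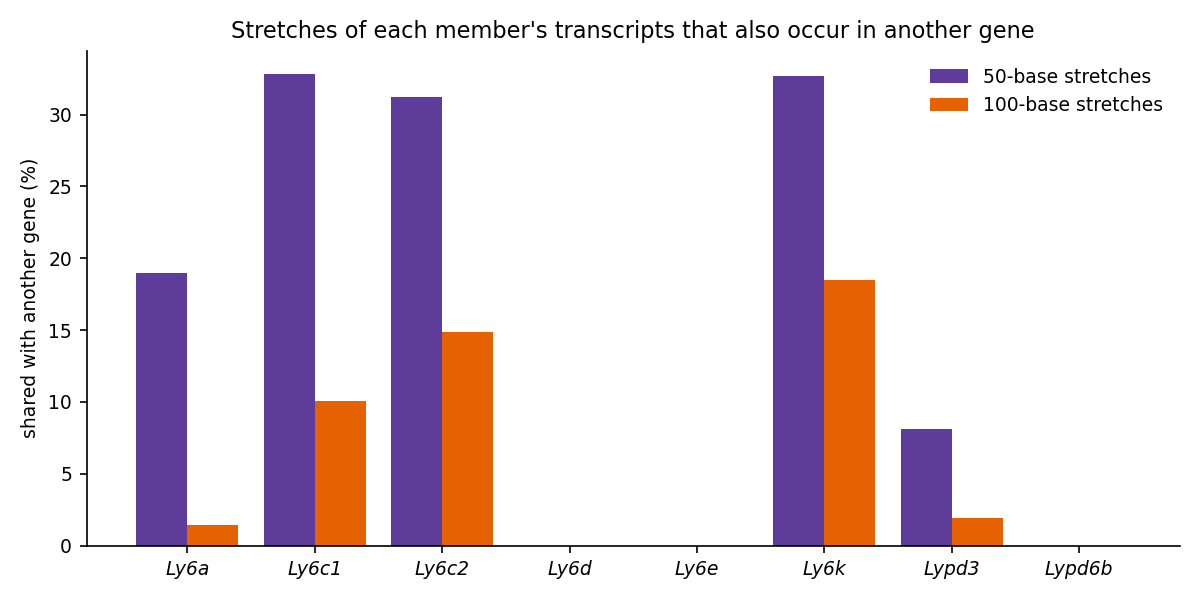
Percentage of the 50-base (purple) and 100-base (orange) stretches in each member's protein-coding transcripts that also occur in transcripts of another gene. Ly6c1, Ly6c2 and Ly6k stand near 32% at 50 bases, while Ly6d, Ly6e and Lypd6b stand at 0.

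Libraries held 16525869 to 23192701 estimated counts. Zdhhc20 itself read 38.0 ± 4.34 CPM, counts scaled to library size (SD, n = 3), in the knockout clone, 82.4 ± 7.74 in the parental cells and 110 ± 20.7 in the control clone. Its counts cover the whole gene and do not show where the edit lies. Of the 8 ductal epithelial markers, Krt8, Krt18, Krt19 and others gave a summed 4319 to 9379 CPM in every library, but Epcam and Cldn4 stayed at or below 1.48 CPM on average in every group. The 8 lymphoid markers summed to at most 0.119 CPM, with 7 at 0 counts in all libraries. Of the 10 myeloid markers, Adgre1 and Tyrobp were at 0, and of the 11 endothelial markers, Cldn5 and Emcn were at 0. The endothelial sum was 42.5 to 48.2 CPM in the parental cells, 24.8 to 38.9 in the control clone and 4.83 to 6.51 in the knockout clone, most of it Flt1. The myeloid sum, most of it Cd14, was 47.5 to 55.2, 25.0 to 42.2 and 18.2 to 20.1 CPM in the same order, and 6 of 9 fibroblast markers were at 0. The part of such cells in the Ly6 values was not tested.

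Of the 8 members, 4 were measurable (Ly6a, Ly6c1, Ly6e and Lypd6b) and passed the filter on low counts that 13153 genes passed. Their order of abundance differed between the groups. Per kb of annotated exon, Ly6e led in the parental cells with 7.29 CPM per kb, ahead of Ly6a at 2.05 ± 0.380, Lypd6b at 0.269 ± 0.0826 and Ly6c1 at 0.146 ± 0.0516 (SD, n = 3). In the knockout clone Ly6e led again with 2.59 CPM per kb, followed by Ly6a at 0.537 ± 0.479, Ly6c1 at 0.101 ± 0.0996 and Lypd6b at 0.0137 ± 0.0120. Ly6a and Ly6c1 there did not differ beyond their spread, nor did Ly6c1 and Lypd6b. In the control clone Ly6a stood at 11.4 CPM per kb, Ly6e at 8.64, Ly6c1 at 4.33 ± 1.75 and Lypd6b at 0.205 ± 0.0400. Measured on the longest transcript, Ly6a and Ly6e were level there at 14.3 CPM per kb each, so the first place in the control clone rests on the length used. By that length Lypd6b and Ly6c1 were also close in the parental cells, at 0.306 and 0.290 CPM per kb.

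The other 4 members were at or near 0 everywhere. Ly6k, a testis gene (chr15:74796874-74799986), had no count in any library, which allows up to 0.0548 CPM in the parental cells, 0.0510 in the control clone and 0.0540 in the knockout clone (3 counts over a group, counting error only). Ly6d (chr15:74762056-74763620), a keratinocyte and B-cell precursor antigen, had 1 count, in parental replicate 3. Lypd3 (chr7:24636550-24641118), the squamous epithelial adhesion protein C4.4A, had 1 count in parental replicate 2 and 1 in control replicate 1. Ly6c2 had 2 counts in knockout replicate 1 and 1 in control replicate 3. None of these supports a comparison. Of the 16 squamous markers, Krt6a, Krt6b and Krt17 had no count in any library. The list summed to 282 to 780 CPM, most of it Sprr1a and Perp. Krt14 was among the markers detected, at 11.3 CPM in the parental cells and 1.20 in the knockout clone. The list did not move as a whole between these 2 groups. Of the 7 squamous markers that passed the filter, edgeR called 3 reduced in the knockout clone, Krt14 included, and 2 raised. The other 2 were not called. Over all genes 18.3% were called lower and 13.1% higher. Pkp1, 1 of the 3, passed the filter mainly through the parental cells, where it was high, so these counts are a description.

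**Figure D2:**
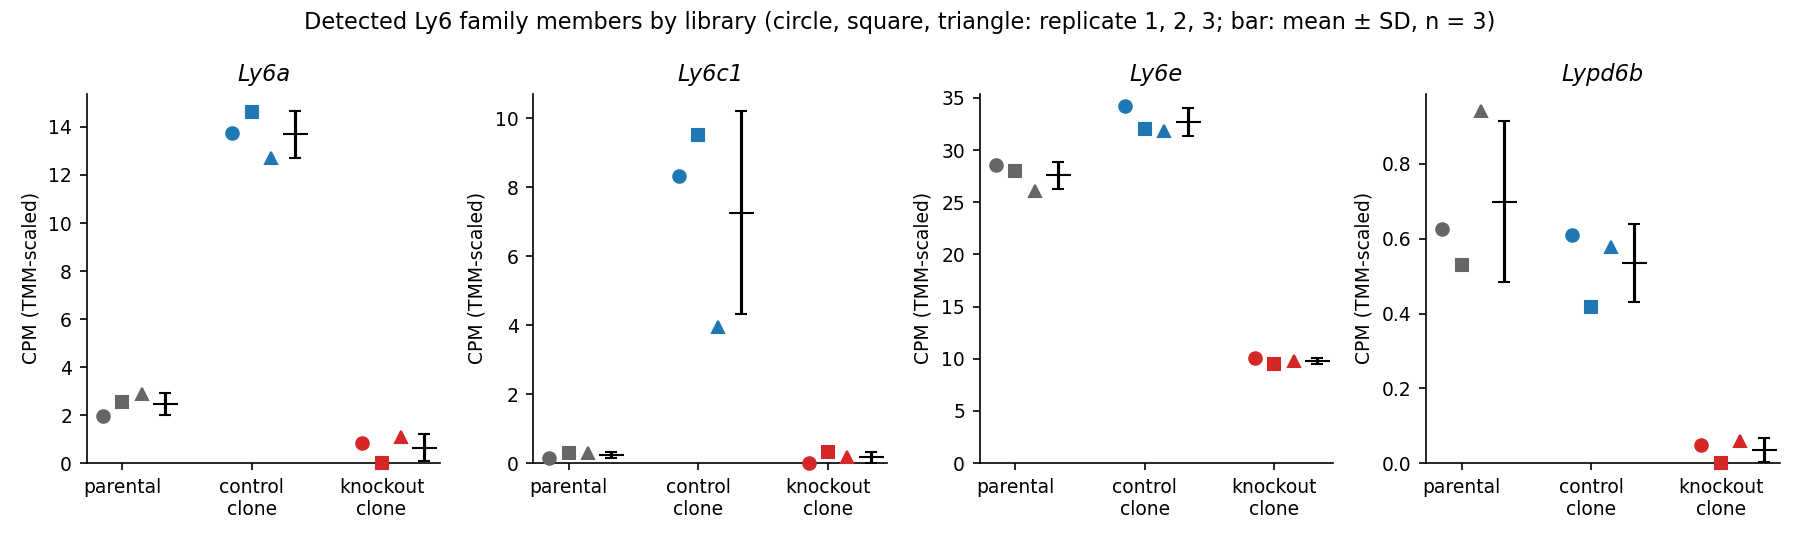
CPM after TMM scaling, on linear axes from 0, of the 4 measurable members in each of the 9 libraries, with the group mean ± SD (n = 3) in black. Ly6a and Ly6c1 are high in all 3 control clone libraries, whereas Ly6e and Lypd6b are low in all 3 knockout clone libraries.

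The knockout clone held less mRNA of Ly6e, Lypd6b and Ly6a than the parental cells, and Ly6c1 was near the detection limit in both. The members were not chosen on this contrast, so each was tested. Ly6c1, whose values chose the family, passed the filter through the control clone alone, and Lypd6b through parental and control libraries. By edgeR's quasi-likelihood test with Benjamini-Hochberg adjustment over all 13153 genes, 3 of the 4 tested members were lower and 0 higher. Across all genes 31.4% were called in either direction, 18.3% lower and 13.1% higher, and 31.7% had every knockout value below every parental value, as the same 3 members did. Because the filter admitted members through groups in which they were high, the count of 3 is a description.

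Ly6e (chr15:74955051-74959905, plus strand), also called Sca-2 and known as a receptor for the placental fusion protein syncytin-A and as a modulator of virus entry, was the most strongly counted member. It read 28.6, 28.0 and 26.1 CPM in the parental replicates, 34.2, 32.0 and 31.9 in the control clone and 10.1, 9.51 and 9.75 in the knockout clone. The 3 groups did not overlap, and the knockout clone was the lowest. Ly6e fell by 1.49 on the log2 scale in the knockout clone against the parental cells (SE 0.09, edgeR adjusted p 7.13e-06, lower in 3 of 3 libraries). Its count is free of the sequence sharing described above.

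Lypd6b (chr2:49787688-49948849, plus strand), a GPI-anchored modulator of nicotinic acetylcholine receptors, was the only measurable member outside chromosome 15. Its counts were 13, 9 and 16 in the parental cells, 14, 7 and 11 in the control clone and 1, 0 and 1 in the knockout clone. Parental and control libraries overlapped and all 3 knockout libraries lay below both. The 38 parental counts against 2 in the knockout clone give a ratio of 19.3 after scaling (95% exact interval 4.99 to 165, counting error only), and edgeR's adjusted p was 0.00123, or 0.000506 with no filter on low counts.

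Ly6a (chr15:74994877-74998031, minus strand), the Sca-1 gene, read 1.98, 2.53 and 2.88 CPM in the parental cells, 13.8, 14.6 and 12.7 in the control clone and 0.830, 0 and 1.11 in the knockout clone. Every knockout library lay below every parental one. Ly6a fell by 1.91 on the log2 scale in the knockout clone against the parental cells (SE 0.58, edgeR adjusted p 0.0319). The call rests on few counts. It was lost without parental replicate 1 (adjusted p 0.0524), 2 (0.0804) or 3 (0.0968), without control replicate 1 (0.0526) and without knockout replicate 1 (0.0713) by the same edgeR test, and limma voom gave a log2 difference of -2.999.

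Ly6c1, which carries part of the Ly6C antigen, had 3, 5 and 5 counts in the parental cells and 0, 6 and 3 in the knockout clone, where the groups overlapped. The log2 difference was -0.53 (SE 0.92, edgeR adjusted p 0.687), and without knockout replicate 1 it was 0.10 (adjusted p 0.942), so no direction is given. In the knockout clone Ly6a and Ly6c1 did not go together by library. Replicate 1 had 17 Ly6a counts and 0 of Ly6c1, replicate 2 had 0 and 6, and replicate 3 had 19 and 3. How reads shared between these copies were divided in replicates 1 and 2 was not tested.

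Adding the counts of Ly6a, Ly6c1 and Ly6c2 removes the division among them. The sums were 44, 48 and 54 counts in the parental cells, 506, 406 and 318 in the control clone and 19, 6 and 22 in the knockout clone. The 3 groups of sums did not overlap. As a level the sum was 0.849 ± 0.480 CPM in the knockout clone, 2.71 ± 0.539 in the parental cells and 20.98 ± 3.85 in the control clone (SD, n = 3). The sum fell by 1.66 on the log2 scale in the knockout clone against the parental cells (SE 0.37, edgeR adjusted p 0.00801 with the sum in place of its genes). Adding Ly6i and I830127L07Rik, which share shorter stretches with these genes, left the log2 difference at -1.66.

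The control clone held far more Ly6c1 and Ly6a mRNA than the parental cells. Its Ly6c1 values chose the members, so the members' values in this contrast and in the contrast of the clones are given as a description with no test. Ly6c1 counts were 191, 160 and 75 in the control clone, or 8.34, 9.52 and 3.94 CPM, against 0.145, 0.295 and 0.294 CPM in the parental cells. Replicate 3 was the lowest of the control clone by a wide margin but still far above all parental and knockout libraries. The log2 difference for Ly6c1 was 4.89 (SE 0.60) and for Ly6a 2.48 (SE 0.46). Ly6a, with 12.7 to 14.6 CPM, varied less between the control replicates than Ly6c1 did. For the sum of Ly6a, Ly6c1 and Ly6c2 the difference was 2.96 (SE 0.30).

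Ly6e and Lypd6b in the control clone stood close to the parental cells. The log2 difference was 0.24 for Ly6e (SE 0.08), with all 3 control values above the parental ones, and -0.37 for Lypd6b (SE 0.40), with overlapping values. Of the 4 measurable members 2 passed the threshold, Ly6c1 and Ly6a, where 21.4% of all genes did, 10.4% higher and 11% lower. Since Ly6c1 in this contrast picked the family, nothing is read from that count.

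Between the clones, all 4 measurable members were lower in the knockout clone. This contrast shares its control libraries with the last and its knockout libraries with the first, so the members' values are set side by side and not counted as further support. The log2 difference was -5.42 for Ly6c1 (SE 0.63), -4.39 for Ly6a (SE 0.54) and -1.74 for Ly6e (SE 0.09). Lypd6b had 32 counts in the control clone and 2 in the knockout clone, a ratio of 15.1 (95% exact interval 3.86 to 130). All 4 passed the threshold, beside 42.9% of all genes, 24.2% lower and 18.7% higher. Set side by side, all 3 groups lay apart for Ly6e and Ly6a, the knockout clone lay apart from both other groups for Lypd6b, and the control clone did for Ly6c1.

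Other genes of the Ly6 and urokinase receptor family were compared as a list of 40, of which 7 passed the filter. In the knockout clone 5 were lower than in the parental cells (Psca, Slurp1, Lynx1, Ly6g2 and Ly6f), 1 was higher (Plaur) and Pate2 did not pass the threshold, at 0.472 CPM against 0.491. Over all genes 18.3% were lower and 13.1% higher. All 5 lie in the chromosome 15 block and Plaur and Pate2 do not. The median log2 difference of the 7 was -2.31, beside -0.006 for all genes tested. Slurp1 and Ly6f passed the filter through the control clone alone, so these counts and the median are a description. In the control clone Psca and Ly6g2 were higher than in parental cells, where 10.4% of all genes were called higher and 11% lower. Slurp1 and Ly6f were above the threshold there too, but entered the test only through the control clone's counts, so no count or median over the list is drawn from this comparison.

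Psca, prostate stem cell antigen, a GPI-anchored protein known from pancreatic and prostate tumours, was the most abundant family gene of the block. It read 57.3, 55.1 and 84.9 CPM in the parental cells, 219, 174 and 142 in the control clone and 15.8, 22.0 and 16.8 in the knockout clone, with no overlap between groups. Against the parental cells, Psca rose by log2 1.44 in the control clone (SE 0.21, edgeR adjusted p 0.00189) and fell by 1.85 in the knockout clone (SE 0.22, edgeR adjusted p 0.000338). Per kb of exon it reached 76.4 CPM in the parental cells, above each of the 8 members.

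Ly6f and Ly6g2, the block's tested genes next beyond Ly6c1, followed the same order of groups. Ly6f read 0.289, 0.472 and 0.294 CPM in the parental cells, 3.10, 3.99 and 2.05 in the control clone and 0, 0 and 0.117 in the knockout clone. Ly6f passed the filter through the control clone alone, so its log2 difference of 3.10 between that clone and parental cells (SE 0.48) is given with no test. The 19 parental and 2 knockout counts of Ly6f give a ratio of 9.65 (95% exact interval 2.33 to 85.4, edgeR adjusted p 0.0239). Ly6g2 read 1.40, 1.71 and 1.88 CPM in the parental cells, 5.81, 2.97 and 10.1 in the control clone and 0.293, 0.0556 and 0.175 in the knockout clone. Its log2 difference was 1.93 for the control clone (SE 0.44, edgeR adjusted p 0.0136) and -3.16 for the knockout clone (SE 0.63, edgeR adjusted p 0.00466), both against the parental cells. Control replicate 3 was the highest for Ly6g2 and the lowest for Ly6c1 and Ly6f, so the copies did not rise and fall together within the control clone. Neither Ly6f nor Ly6g2 shares a 50-base stretch with another gene. The Ly6f call against the parental cells was lost without parental replicate 2 (edgeR adjusted p 0.0738) or 3 (0.0508) and without knockout replicate 1 (0.0822) or 2 (0.0722), and the Ly6g2 call in the control clone without parental replicate 1 (0.0652) or 2 (0.0533).

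Slurp1, a secreted Ly6 protein of keratinocytes, read 0.193, 0.118 and 0.588 CPM in the parental cells, 3.80, 1.90 and 2.99 in the control clone and 0, 0 and 0.0584 in the knockout clone. Slurp1 also passed the filter through the control clone alone, and its log2 difference of 3.28 between that clone and parental cells (SE 0.55) is given with no test. Its 16 parental counts against 1 in the knockout clone give a ratio of 16.3 (95% exact interval 2.52 to 681, edgeR adjusted p 0.0317), a call lost without parental replicate 3 (0.115) and without knockout replicate 1 (0.108) or 2 (0.0946). Slurp1 overlaps Them6 and shares 9.31% of its 50-base stretches with it, and the strand setting of the counting is not given. Lynx1, a GPI-anchored modulator of nicotinic receptors, was lowest in the knockout clone, as Ly6e and Lypd6b were. It read 4.38, 6.07 and 8.06 CPM in the parental cells, 7.64, 4.05 and 8.50 in the control clone and 0.928, 1.28 and 1.52 in the knockout clone, where it was lower than in the parental cells by log2 -2.31 (SE 0.35, edgeR adjusted p 0.00123). Against the parental cells, the control clone differed by log2 0.13 (SE 0.31, edgeR adjusted p 0.791).

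Plaur, the receptor for urokinase plasminogen activator, has several Ly6-type domains and lies on chromosome 7. It moved the other way, at 172, 181 and 167 CPM in the knockout clone against 120, 113 and 123 in the parental cells and 107, 159 and 104 in the control clone. Plaur was 0.54 higher in the knockout clone than in the parental cells (log2, SE 0.15, edgeR adjusted p 0.0213). The call was lost when any 1 parental or knockout library was left out, with edgeR adjusted p between 0.0501 and 0.0713.

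**Figure D3:**
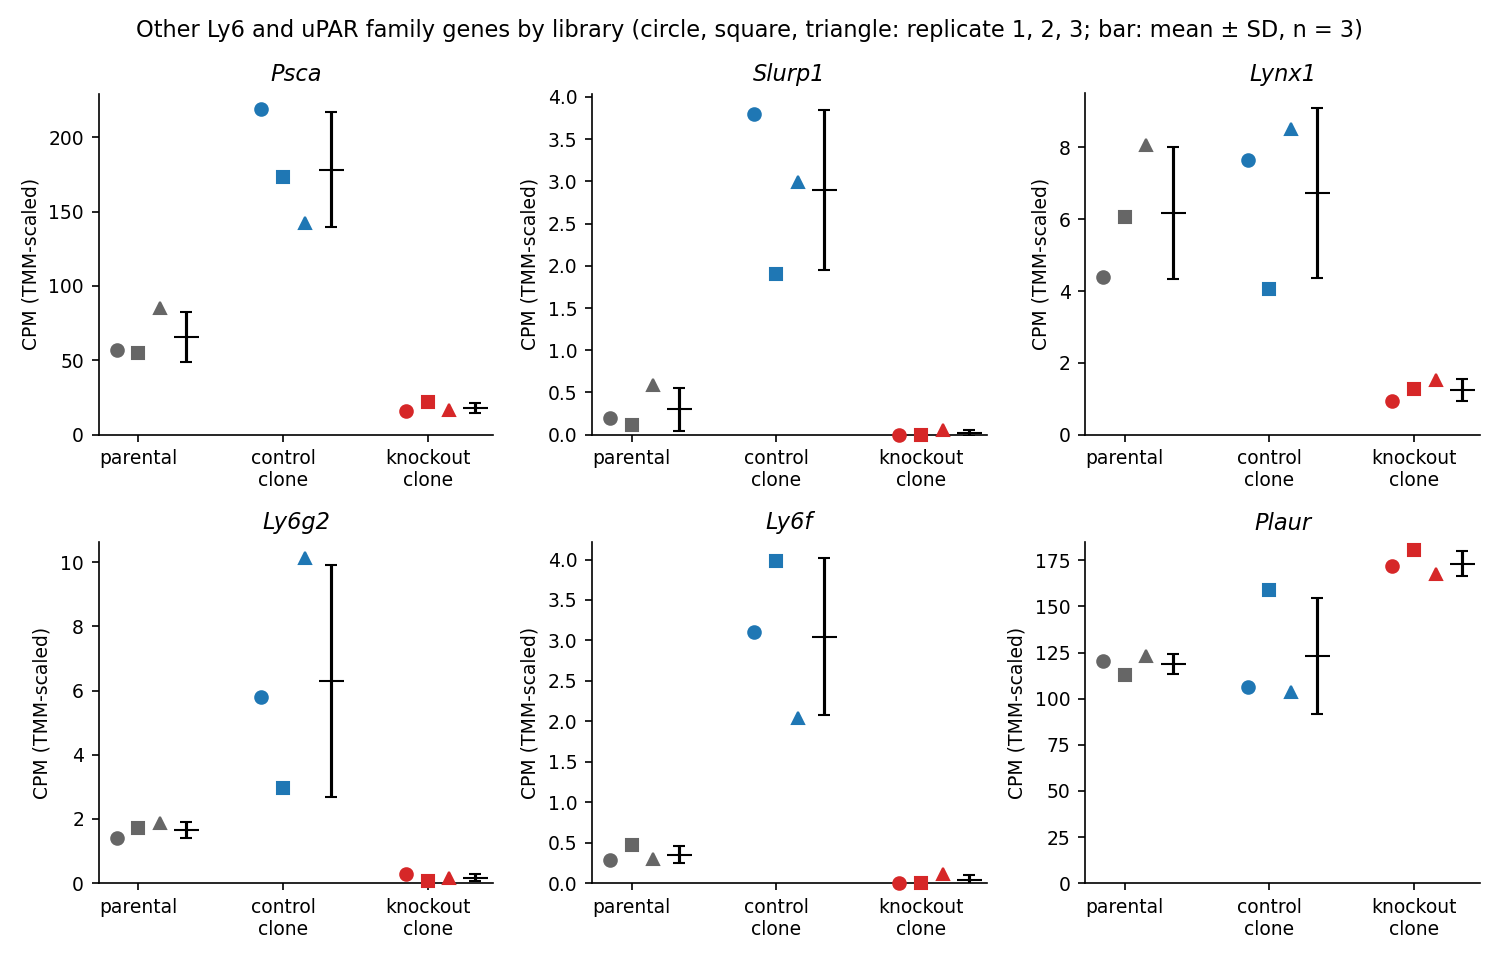
CPM after TMM scaling, on linear axes from 0, of 6 other family genes in each of the 9 libraries, with the group mean ± SD (n = 3) in black. Psca, Slurp1, Ly6g2 and Ly6f are highest in the control clone, Lynx1 is low in the knockout clone only, and Plaur is highest in the knockout clone.

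The block on chromosome 15 runs from Psca to Gpihbp1, chr15:74714839-75599481, and spans 885 kb. It holds 9 tested genes, 8 of them family genes. Slurp1, Ly6f and Ly6c1 entered the test through the control clone, so a count over these 8 is a description. In the knockout clone 7 of them were lower than in the parental cells and Ly6c1 did not pass the threshold. Called lower there were 18.3% of all genes and 87 of the 523 tested on chromosome 15. Them6, the tested gene of another family within the block, fell by 0.46 there (SE 0.13, edgeR adjusted p 0.0249). Of the 3 nearest tested genes on either side, Gm15387, Arc and Jrk before Psca and Zfp41, 2810039B14Rik and Top1mt after Gpihbp1, only Top1mt passed the threshold. Top1mt was higher, by 0.57 in the knockout clone (SE 0.12, edgeR adjusted p 0.00716) and by 0.60 in the control clone (SE 0.12, edgeR adjusted p 0.00856). Over the 523 tested genes of chromosome 15 the median log2 difference from the parental cells was 0.09 in the knockout clone and 0.13 in the control clone.

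**Figure D4:**
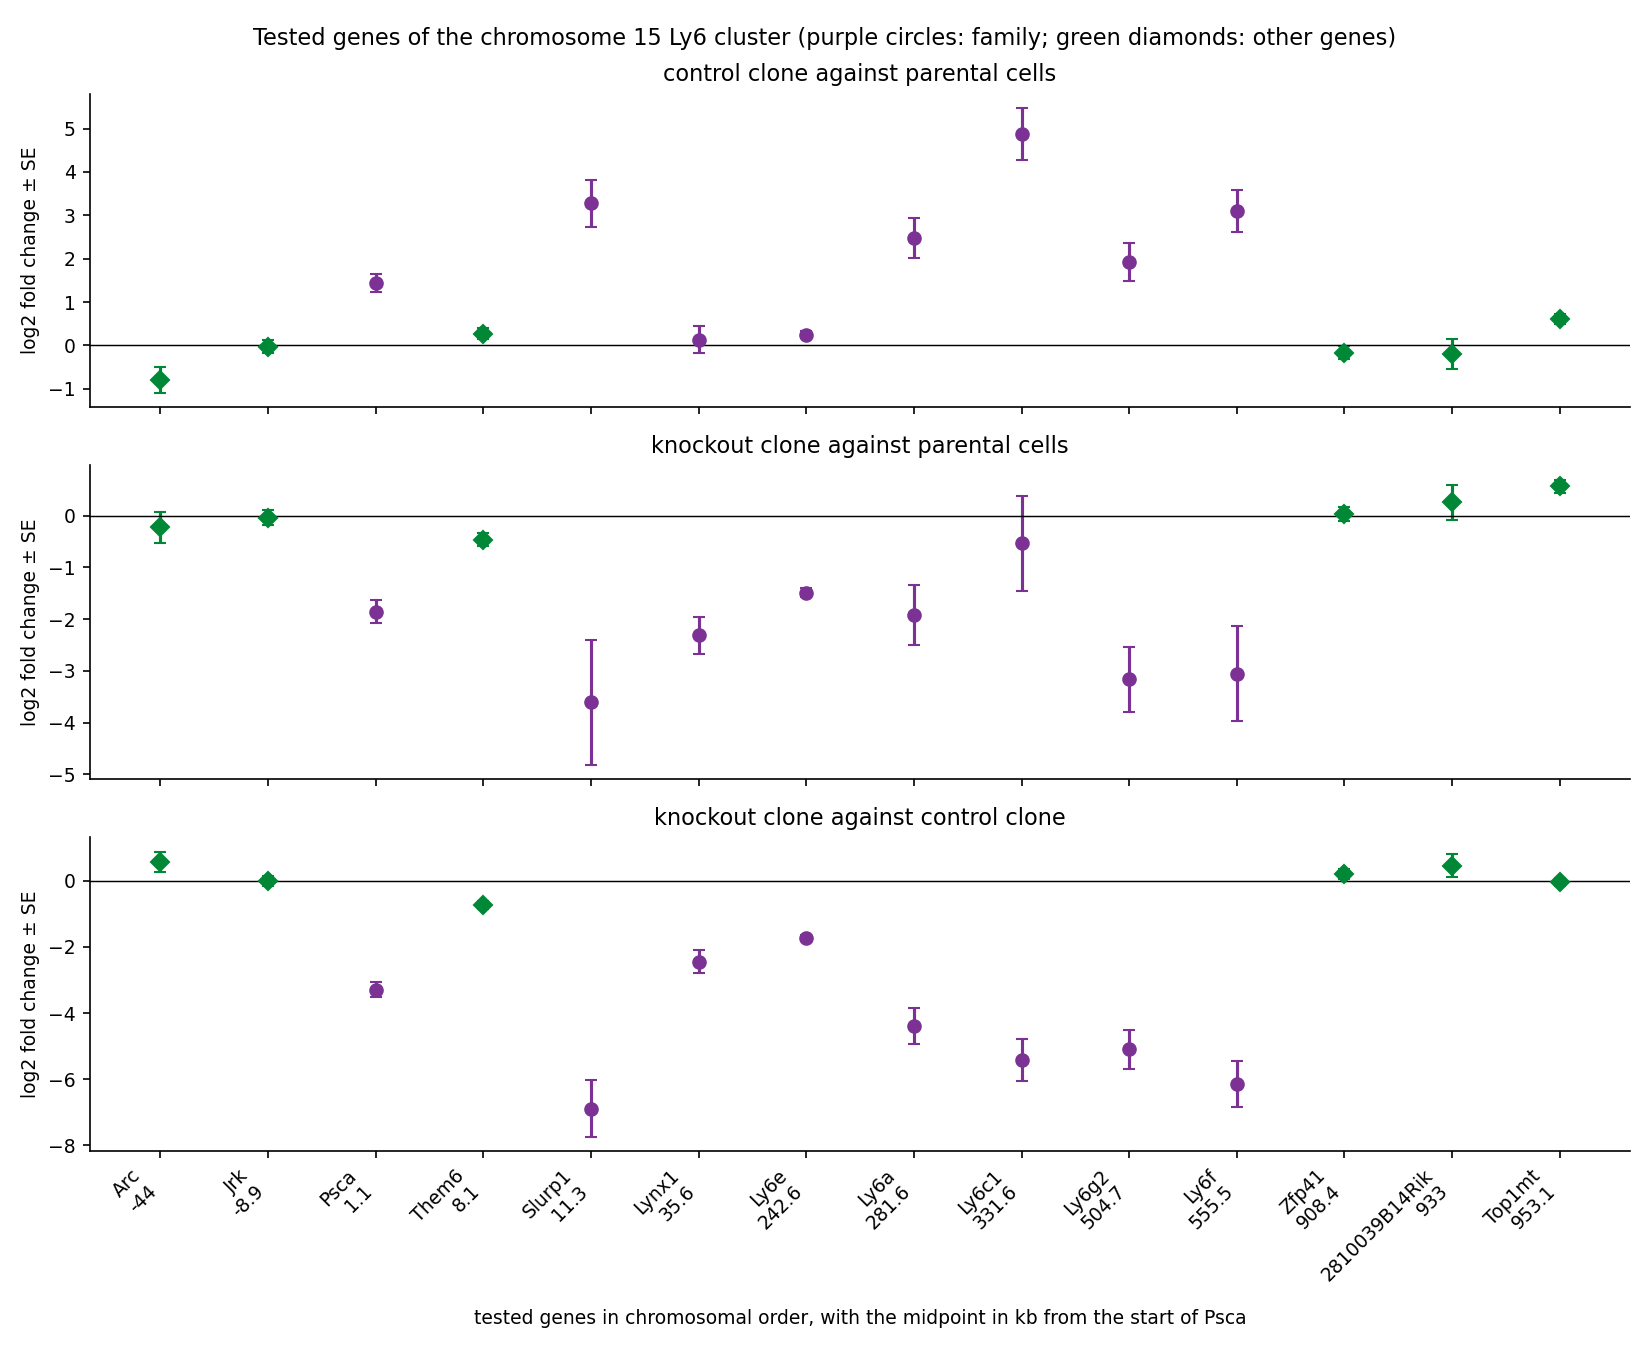
Log2 fold change ± SE (edgeR, 9 libraries) of tested genes in and beside the chromosome 15 block, in chromosomal order with equal spacing, and the distance from the start of Psca in kb under each name. Most family genes (purple circles) lie away from 0, except Lynx1 and Ly6e in the control clone and Ly6c1 in the knockout clone against the parental cells. Green diamonds mark genes of other families, which are Them6 within the block and the flanking genes. Of the flanking genes, Jrk and Zfp41 lie near 0, Top1mt lies above it in both clones and Arc at -0.80 in the control clone. The far neighbour Gm15387 is not drawn.

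The upstream sequences of Ly6c1, Ly6c2 and Ly6f are shown because Ly6c1 and Ly6f were high in the control clone while Ly6c2, the near copy of Ly6c1, had 1 count there. They are the 250 bases before the RefSeq start on GRCm38.p6, which were given for 3 of the 8 members (Ly6c1, Ly6c2 and Lypd3). Ly6c1 is chr15:75048838-75049087 and Ly6c2 chr15:75111972-75112221, both on the minus strand, and Ly6f is chr15:75268171-75268420 on the plus strand. Capitals mark the letters TATAAA, searched on both strands.
Ly6c1 upstream: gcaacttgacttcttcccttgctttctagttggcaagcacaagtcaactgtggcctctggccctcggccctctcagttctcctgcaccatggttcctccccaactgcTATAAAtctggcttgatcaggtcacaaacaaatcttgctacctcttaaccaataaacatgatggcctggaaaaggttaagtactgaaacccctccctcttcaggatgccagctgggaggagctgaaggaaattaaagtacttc
Ly6c2 upstream: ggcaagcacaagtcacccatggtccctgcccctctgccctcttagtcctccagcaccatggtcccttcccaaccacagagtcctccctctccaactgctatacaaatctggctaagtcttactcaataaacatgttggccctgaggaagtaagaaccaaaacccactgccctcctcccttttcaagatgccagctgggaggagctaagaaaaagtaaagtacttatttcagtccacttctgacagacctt
Ly6f upstream: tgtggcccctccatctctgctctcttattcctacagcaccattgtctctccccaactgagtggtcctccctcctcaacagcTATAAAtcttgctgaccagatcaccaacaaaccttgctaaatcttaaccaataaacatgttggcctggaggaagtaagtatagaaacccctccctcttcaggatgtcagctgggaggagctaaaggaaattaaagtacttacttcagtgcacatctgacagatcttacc
TATAAA begins 143 bases before the start in Ly6c1 (position -143) and 169 bases before it in Ly6f (position -169), and Ly6c2 has no match. Of 32851 RefSeq upstream windows of this length, 12.4% hold it. Whether TATAAA bears on the levels of these 3 genes was not tested. The windows are 71.9% identical between Ly6c1 and Ly6c2, 75.4% between Ly6c1 and Ly6f and 70.7% between Ly6c2 and Ly6f. Outside the windows, the coding sequence of Ly6f is 77.4% identical to that of Ly6c1. None of these windows holds TTCNNNGAA, the interferon-gamma activated site (7.02% of all windows do), or TGANTCA, the AP-1 site (6.75%), on either strand.

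Interferon response genes were examined as a fixed list because several Ly6 genes are known to respond to interferon. Of 16, 7 passed the filter. Against the parental cells, edgeR called 0 of them in the knockout clone, beside 18.3% of all genes lower and 13.1% higher. In that clone 1 higher and 1 lower had an unadjusted p under 0.05, and DESeq2 called 1. In the control clone edgeR called 2 higher, Bst2 and Cxcl10, and limma voom 1, beside 10.4% of all genes higher and 11% lower. Cxcl10 entered the test only through the clones, where it was high, so the count of 2 is a description. Bst2 was at 12.5 CPM in the control clone against 7.03 in the parental cells (log2 0.83, SE 0.12, edgeR adjusted p 0.00212). It was at 6.98 CPM in the knockout clone. Cxcl10, a chemokine induced by interferon-gamma, passed the filter through libraries of the clones alone, so its differences are given with no test. Its counts were 3, 4 and 3 in the parental cells. They were 10, 27 and 9 in the control clone and 10, 17 and 12 in the knockout clone. The log2 difference of Cxcl10 from the parental cells was 2.11 in the control clone (SE 0.65) and 1.91 in the knockout clone (SE 0.66). Of 10 known partners of Ly6 proteins, including nicotinic receptor subunits and Agr2, only Lrp6 passed the filter, with log2 differences from the parental cells of -0.07 (SE 0.11, edgeR adjusted p 0.667) and 0.12 (SE 0.11, edgeR adjusted p 0.471) in the knockout and the control clone.

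The genes most like each member were found by Pearson's r of log2 CPM over the 9 libraries, among 10018 genes. The points fall into 3 groups that all genes share, so r is given as a description. Ly6e was closest to Clstn1 (r = 0.996), B4galt4 (0.996) and Icam1 (0.995), and Lypd6b to Dpp8 (0.991), As3mt (0.990) and Ncoa7 (0.989). Ly6c1 was closest to Gpr107 (0.984), Wdr20 (0.984) and Arhgap45 (0.982), and Ly6a to Znrd1as (0.973) and Acot8 (0.962). None of these genes lies on chromosome 15. Within the family, Ly6e and Lypd6b, on different chromosomes, had r = 0.941, Ly6a and Ly6c1 0.744, and Ly6c1 and Ly6f 0.928.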

How the data were processed

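Poly(A) RNA libraries of 9 cultures in 3 groups were made with a KAPA mRNA HyperPrep kit, per the labels' protocols. The deposited table holds estimated counts per Ensembl gene, which the authors made with STAR 2.5.2 and RSEM 1.3.0 on GRCm38, per the submitters' processing notes, where DESeq2 1.10.1 is also listed. All values were whole numbers. The annotation release, strand setting and read length are not given in the sources used here. Gene identifiers were matched to GENCODE M21 (54723 of 54838, 115 not). RSEM divides reads that fit several genes by a model, which bears on Ly6a, Ly6c1 and Ly6c2.

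Genes were filtered with filterByExpr (minimum count 10, minimum total 15), which left 13153. CPM were scaled by TMM. edgeR 4.0.16 (R 4.3.3) fitted 1 quasi-likelihood model with group as the only factor to all 9 libraries, and p-values were adjusted by Benjamini-Hochberg over all tested genes, with a threshold of 0.05. Log2 fold changes carry edgeR's default shrinkage and SEs come from the unshrunken fit. On counts simulated for the knockout and parental comparison over 12930 genes, 86% of 200 changed genes were recovered (75% at 2-fold and 97% at 4-fold) and 13 unchanged genes were called. Levels per kb use the union of annotated exons. Intervals are exact at 95% and cover counting error only. No 2 replicates were near-identical. Alternatives included DESeq2 1.42.0, limma voom (limma 3.58.1), other scalings, other filters, a replicate block, fits on only the groups compared and leaving out each library.

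The members, the lists and the tests were chosen with earlier results of these data known. All 8 members were named, with list genes that passed the filter and a log2 difference of 1 (at most 5 for each list and comparison), the 3 tested neighbours on each side of the block and the 3 genes most like each measurable member (mean of at least 5 CPM, log2 CPM with a prior count of 2), of which 1 is not reported here. Plaur, Pate2, Them6, Flt1, Cd14, Bst2, Lrp6, Ly6i, I830127L07Rik, Sprr1a, Perp and the keratins fall outside that rule and were named after their values were seen. Ly6g2 was matched by position (at least 90% reciprocal overlap). Of the 31 listed genes of GPI anchor synthesis 30 were matched.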

Additional observations from a re-analysis of the deposited data

How the results depend on the processing

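Ly6e against the parental cells kept its direction and its call in the knockout clone in all 17 alternatives (log2 -1.53 to -1.46), and Lypd6b in all 15 in which it was tested (-4.44 to -3.56). Ly6a kept its direction in 17 and its call in 12 (-2.999 to -1.34). Ly6c1 ranged from -1.495 to 0.095, the last without knockout replicate 1. Leaving out 1 library gave 2515 to 5693 genes called between the knockout clone and parental cells (4131 in the full fit), 1472 to 4102 between the control clone and parental cells (2814) and 4301 to 7204 between the clones (5643). It gave 2 to 3, 2 to 3 and 4 members called in the same order. On only the 2 groups compared, 6840 and 1525 genes were called in the first and second comparison. A minimum mean of 5 CPM removes Lypd6b and Ly6c1 from the test, which left 1 member called between the control clone and parental cells and 2 between the clones. Ly6e in the control clone differed from parental cells by log2 0.24 and passed the threshold only without control replicate 2 or 3.

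Replicate numbers did not pair the libraries: 1 of 9 same-numbered pairs correlated above 0.1 (r from -0.134 to 0.212). With the replicate block 3941, 2492 and 5528 genes and 3, 2 and 4 members were called, and no call of a member changed. Directions reversed for 4 uncalled genes: Ly6c1 in the knockout clone as given above, Pate2 in the knockout clone (-0.41 to 0.34, with 0.02 and 0.19 without parental replicate 1 or 2, 0.34 without knockout replicate 3), and in the control clone Lynx1 (-0.074 to 0.39, with -0.074 without parental replicate 1, -0.06 without control replicate 3) and Plaur (-0.18 to 0.158, with -0.001 with total counts, -0.006 without parental replicate 2, -0.18 without control replicate 2). The cause was not tested. Depth limits Ly6c1 outside the control clone, Lypd6b, Slurp1 and Ly6f, whose counts in the lowest group total 9 or fewer.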

Other observations

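Genes that build, attach or trim the GPI anchor, on which the Ly6 proteins depend, were lower in the knockout clone for part of the list. Of 30 matched genes 28 were tested. Against the parental cells, 9 were lower and 1 higher by edgeR's quasi-likelihood test, beside 18.3% of all genes lower and 13.1% higher, with a median log2 difference of -0.18 beside -0.006 for all genes. Pgap1, which removes an acyl chain from the anchor after attachment, was at 88.7 ± 10.3 CPM in the knockout clone, 201 ± 22.96 in the parental cells and 289 ± 124 in the control clone (SD, n = 3). Pgap1 fell by 1.18 on the log2 scale in the knockout clone against the parental cells (SE 0.28, edgeR adjusted p 0.0107). Mppe1, which trims the anchor's glycan before export, fell by 1.17 (SE 0.23, edgeR adjusted p 0.00409). In the control clone 2 of the 28 were higher than in the parental cells and 0 lower (4 and 1 at an unadjusted p under 0.05), beside 10.4% and 11% of all genes. Between the clones 12 were lower and 0 higher by edgeR (14 and 0 at an unadjusted p under 0.05), beside 24.2% and 18.7% of all genes. The 10 calls against the parental cells came down to 5 without parental replicate 2 or 3 or knockout replicate 2 or 3, and to 6 without knockout replicate 1 or with no filter. The 2 calls in the control clone came down to 0 without parental replicate 1 and rose to 5 without control replicate 3.

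Of the 3 endothelial markers that could be tested, Flt1, Egfl7 and Esam, all had fallen in the knockout clone relative to parental cells, as had Ly6a, Ly6e and Lypd6b. Over all genes 18.3% were called lower there and 13.1% higher. Esam passed the filter mainly through the parental cells, where it was high, so the count of 3 is a description. Flt1, a receptor of the VEGF family, was at 4.83 ± 1.13 CPM in the knockout clone against 42.3 ± 2.18 in the parental cells (SD, n = 3, log2 -3.13, SE 0.20, edgeR adjusted p 1.69e-05). Egfl7 fell by 3.15 (SE 0.49, edgeR adjusted p 0.00125). Pecam1 and Cdh5, which define endothelial cells, had at most 6 counts in any library and did not pass the filter. Their totals were 9 and 12 counts in the knockout clone against 5 and 5 in the parental cells. The libraries of these groups overlapped for both genes, so no direction is given.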
